A study of Mus musculus with 6 samples.

Results

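The genes Hsd3b2, Hsd3b3, Hsd11b1, Hsd11b2, Nr3c1, Nr3c2, Scnn1a, Scnn1b, Scnn1g and Sgk1, were followed as the corticosteroid route of the mouse colorectum, from steroid enzymes to receptors to the epithelial sodium channel. They are 10 of the 18268 genes in the expression table, and each was found by its symbol. They were picked with the difference between the 2 drugs already known, so their differences are given as a description and without p-values. The question was how the large bowel of colitis mice receiving berberine (BBR), a plant alkaloid, differed from that of colitis mice receiving sulfasalazine (SASP), a drug split by gut bacteria to release 5-aminosalicylic acid. All 6 mice were adult male C57BL/6 animals that drank dextran sulfate sodium (DSS), which damages the lining of the colon, for 7 days, and the drug was given by gavage for 6 days. There were 3 mice per drug. Healthy mice and colitis mice without a drug were not analysed here, so a value that is higher with BBR is equally a value that is lower with SASP.

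Corticosteroids act through a pair of nuclear receptors, the glucocorticoid receptor and the mineralocorticoid receptor, and enzymes inside the cell decide how much active hormone reaches them. In the distal colon the mineralocorticoid receptor drives sodium uptake through the epithelial sodium channel, a membrane channel of alpha, beta and gamma subunits, and through the kinase SGK1, which keeps the channel at the cell surface. The 3-beta-hydroxysteroid dehydrogenases convert early steroids of the pathway into the forms from which corticosteroids, progesterone and androgens are made. The gut epithelium is also known to make glucocorticoids locally.

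The values are FPKM, fragments scaled to transcript length and library size, so that levels of different genes can be set side by side. Differences are given as log2 fold changes, the mean of log2(FPKM + 1) with BBR minus that with SASP, with the standard error (SE) from a limma model of all tested genes, and adding 1 understates the change of genes with low FPKM. A gene was tested when at least 3 of the 6 mice had an FPKM of at least 1, and a difference passed the test at a Benjamini-Hochberg adjusted p under 0.05. All 10 genes were tested. Hsd3b2 reached the minimum through the mice receiving BBR, since only 1 mouse receiving SASP had an FPKM above 1, so a difference for it was built into the filter.

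Hsd3b2 and Hsd3b3 were higher with BBR by the widest margin, and both passed the threshold. Sgk1 and Hsd11b1 had every BBR mouse above every SASP mouse without passing it, and in the other 6 genes the mice of the 2 drugs overlapped. These 2 of 10 genes stand beside 8.86% of the 12072 tested genes that passed in either direction and 3.82% that passed as higher with BBR. The 4 of 10 genes whose groups did not overlap stand beside 37.9% of all tested genes, and 21.3% had all BBR mice above all SASP mice. The median log2 fold change of the 10 genes was 0.31, against 0.10 over all tested genes. Nothing is read from these counts, because the genes were chosen on this contrast.

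**Figure D1:**
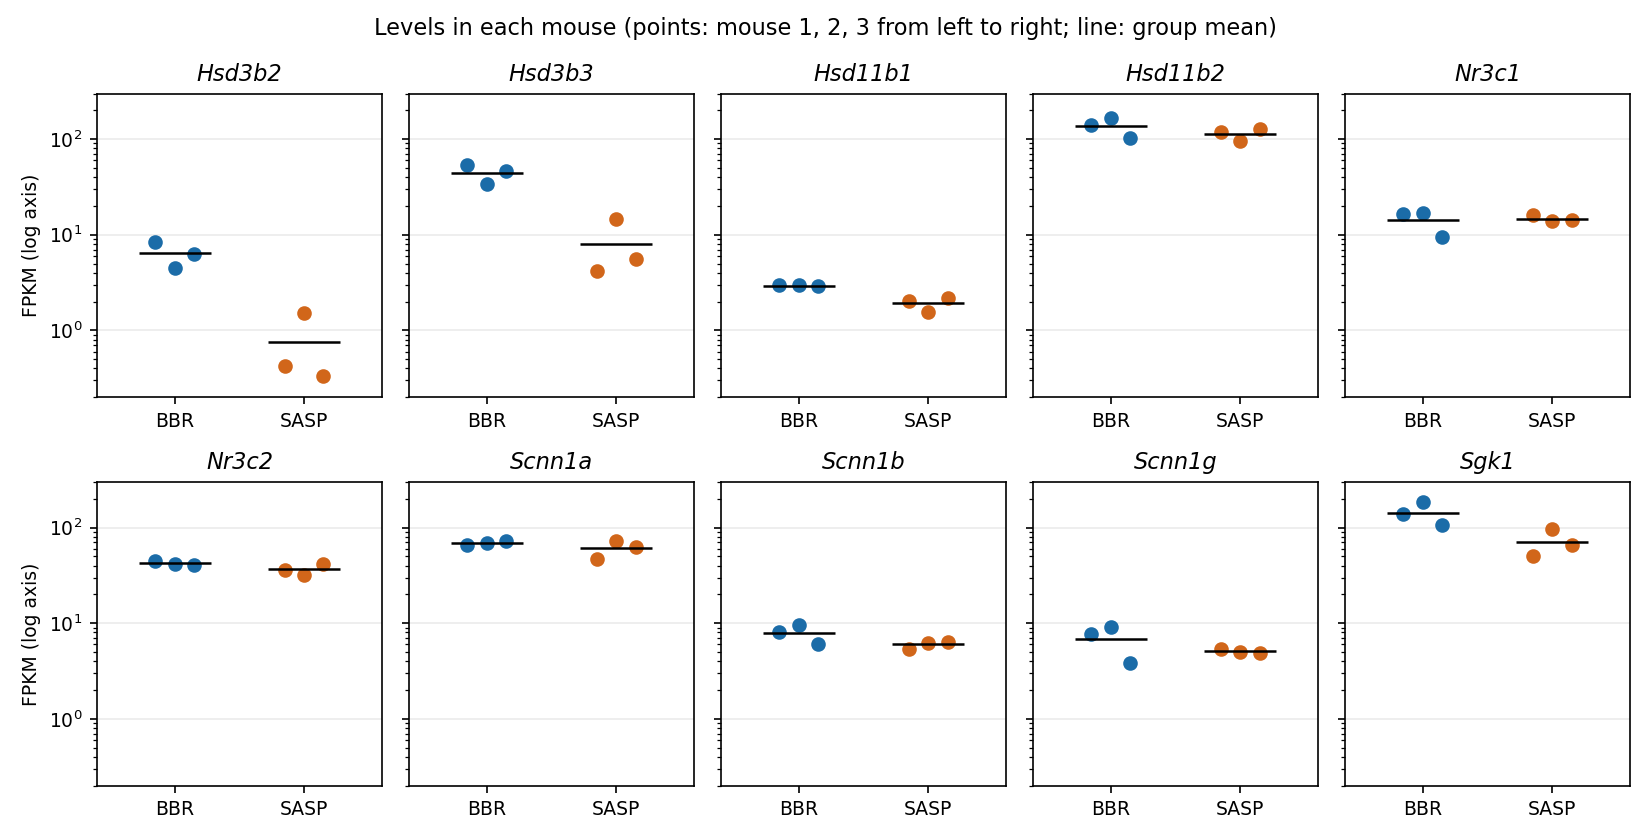
FPKM of each of the 10 genes in the 3 mice receiving BBR and the 3 mice receiving SASP, on a log axis, with 1 point per mouse and a line at the group mean. Hsd3b2 and Hsd3b3 have the widest gap between the drugs, while Hsd11b2, the receptors and the channel subunits overlap.

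The libraries were of similar depth, estimated at 16400000 to 18200000 reads per mouse from the smallest FPKM steps of 31 to 56 genes per mouse. The first principal component of all tested genes held 60.4% of the variance and separated the drugs, while BBR mouse 3 stood away from all other mice on the second (25.4%). The summed FPKM of 8 epithelial markers overlapped, at 5136 to 5543 with BBR and 4949 to 5712 with SASP, and all 8 were expressed in each mouse. The summed FPKM of 10 smooth muscle markers did not overlap, at 3272 to 7570 with BBR and 908 to 2704 with SASP, nor did that of 8 fibroblast markers, at 312 to 414 with BBR and 138 to 244 with SASP. The sum of 6 5-prime Hox genes of the hindgut overlapped, at 208 to 413 with BBR and 244 to 299 with SASP, and that of 7 leukocyte markers was 20.2 to 35.3 with BBR and 34.1 to 73.3 with SASP. In tissue RNA, fewer cells of a type and less RNA per cell cannot be told apart, which applies to every gene below.

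The mouse 3-beta-hydroxysteroid dehydrogenases come from a cluster of closely related genes. The coding sequences of Hsd3b2 (Gene ID 15493) and Hsd3b3 (Gene ID 15494) in the GENCODE M21 transcripts were both 1119 bases long and had 1064 bases in common, or 95.1%. Their longest identical run was 228 bases, from coding position 153 to 380. Of 1070 windows of 50 bases, 33.4% were the same in both, so reads of that length from these windows cannot be assigned by sequence, and how the estimation divided them between the genes sets their separate FPKM. The stretch of 100 coding bases in which they were least alike, positions 557 to 656, is shown because its 15 differing bases, in capitals, are among those that tell the transcripts apart.
Hsd3b2: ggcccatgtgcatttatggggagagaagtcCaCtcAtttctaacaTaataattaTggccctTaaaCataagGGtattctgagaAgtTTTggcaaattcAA
Hsd3b3: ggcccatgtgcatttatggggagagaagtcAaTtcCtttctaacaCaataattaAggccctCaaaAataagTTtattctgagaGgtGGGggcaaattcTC

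Hsd3b3 was measured at 53.75, 33.68 and 46.61 FPKM in the BBR mice and at 4.13, 14.48 and 5.59 FPKM in the SASP mice. The lowest BBR mouse was above the highest SASP mouse, and SASP mouse 2 was well above the other 2 of its group. The means were 44.7 ± 10.2 FPKM (SD, n = 3) with BBR and 8.07 ± 5.6 FPKM (SD, n = 3) with SASP, a ratio of 5.54, and the log2 fold change was 2.48 (SE 0.40).

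Hsd3b2 ran at a lower level, at 8.45, 4.46 and 6.30 FPKM with BBR and 0.42, 1.53 and 0.33 FPKM with SASP. The order of the mice was nearly that of Hsd3b3, with BBR mouse 1 highest and SASP mouse 2 highest of its group. The means were 6.40 ± 2.0 FPKM (SD, n = 3) and 0.760 ± 0.668 FPKM (SD, n = 3), a ratio of 8.43, and the log2 fold change was 2.10 (SE 0.30). The lowest value, 0.33 FPKM in SASP mouse 3, corresponds to an estimated 6 to 20 reads, depending on which annotated transcript length is used, so the Hsd3b2 values with SASP rest on few reads.

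Summing both genes removes the question of how shared reads were divided between them. The sum was 62.2, 38.1 and 52.9 FPKM with BBR and 4.55, 16.01 and 5.92 FPKM with SASP, with means of 51.1 ± 12.1 and 8.83 ± 6.26 FPKM (SD, n = 3 each). The groups again did not overlap, and the difference of the log2 means was 2.56. The ratio of Hsd3b3 to Hsd3b2 was 6.36, 7.55 and 7.40 in the BBR mice and 9.83, 9.46 and 16.9 in the SASP mice, so Hsd3b3 was the more abundant transcript per length in all 6 mice. Over the 6 mice the log2 levels of the pair had a Pearson r of 0.99, and of 0.92 after the group means were taken out, a description in which shared sequence and shared libraries both enter.

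**Figure D2:**
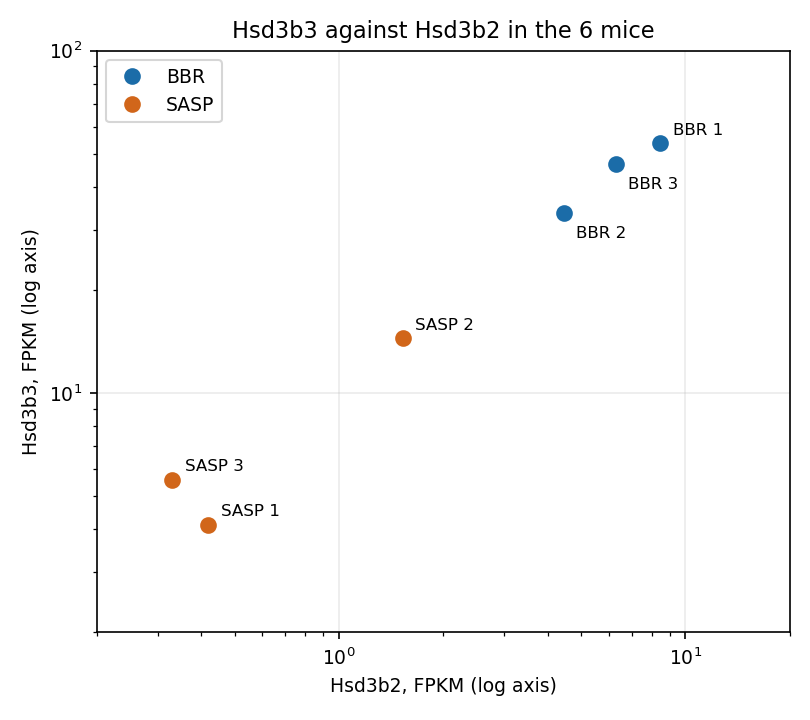
Hsd3b3 against Hsd3b2 in FPKM, both on log axes, with 1 point per mouse. The 3 BBR mice lie at the upper right, SASP mouse 2 lies between them and the other SASP mice, and Hsd3b3 is above Hsd3b2 in every mouse.

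Neither gene passed the threshold without BBR mouse 1, without SASP mouse 1 or without SASP mouse 3, with log2 fold changes of 1.91, 1.98 and 1.93 for Hsd3b2 and 2.33, 2.15 and 2.33 for Hsd3b3. In the same fits the count of all tested genes past the threshold went from 1069 to 131, 59 and 51. Neither passed with a smooth muscle score as covariate, where the values were 1.86 for Hsd3b2 and 1.79 for Hsd3b3 and 19 of all tested genes passed. The epithelial marker Cdx2, an intestinal transcription factor, was ordered much like them, at 22.85, 11.85 and 19.0 FPKM with BBR and 4.69, 9.13 and 3.74 FPKM with SASP, and its log2 fold change was 1.5 (SE 0.33). It was singled out for this likeness after its values were seen, so no p-value is given for it, and its part in the Hsd3b values was not tested. Of the 8 epithelial markers, Cdx2 and Krt18 passed as higher with BBR, Vil1 passed as lower and 5 did not pass. Beside them, 3.82% of all tested genes passed as higher and 5.04% as lower, and nothing is read from these calls.

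Of the genes compared, Nmrk1 (r = 0.998), Specc1 (r = 0.997) and Ppil6 (r = 0.996) had the pattern most like that of Hsd3b3 over the 6 mice. In all, 213 of the 12071 other tested genes had an r above 0.95 with it.

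Of the other genes of this enzyme family in the table, those of the steroid-forming cluster were near 0. Hsd3b1, the main form of the adrenal and gonads, was at most 0.07 FPKM in any mouse, and Hsd3b6 was at most 0.07 FPKM. Hsd3b7, which acts in bile acid synthesis rather than on these steroids, was at 13.47, 14.13 and 9.59 FPKM with BBR and 10.84, 11.52 and 10.26 FPKM with SASP, and its groups overlapped. The adrenal cortex enzymes Cyp11b1 and Cyp11b2, which complete corticosterone and aldosterone, and Cyp21a1, which acts before them, were at most 0.17 FPKM. Cyp11a1, which cuts cholesterol to pregnenolone, was at 0.81, 3.85 and 0.13 FPKM with BBR and 0.06, 0.22 and 0.41 FPKM with SASP, and only BBR mouse 2 exceeded 1 FPKM. The same mouse had the highest summed FPKM of 7 adipocyte markers, at 115 against 5.13 to 40.8 in the other mice, and their part in the Cyp11a1 value was not tested. The summed adrenal markers were 1.98, 5.08 and 1.03 FPKM with BBR and 0.51, 0.85 and 1.13 FPKM with SASP.

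The 11-beta-hydroxysteroid dehydrogenases interconvert active and inactive glucocorticoids. Hsd11b2 (Gene ID 15484) inactivates corticosterone and so leaves the mineralocorticoid receptor to aldosterone, and Hsd11b1 (Gene ID 15483) regenerates active hormone in many tissues. Hsd11b2 was measured at 140.23, 165.09 and 103.50 FPKM with BBR and 117.89, 96.59 and 126.51 FPKM with SASP. The groups overlapped, with BBR mouse 3 below SASP mice 1 and 3, and the log2 fold change was 0.24 (SE 0.19).

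Hsd11b1 was low, at 2.95, 3.0 and 2.88 FPKM with BBR and 2.02, 1.55 and 2.19 FPKM with SASP. All BBR mice were above all SASP mice, and the BBR mice differed from each other by little, with means of 2.94 ± 0.0603 and 1.92 ± 0.332 FPKM (SD, n = 3 each). The log2 fold change of 0.44 (SE 0.14) did not pass the threshold. At its lowest, 1.55 FPKM in SASP mouse 2, Hsd11b1 corresponds to an estimated 35 to 46 reads.

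The ratio of Hsd11b2 to Hsd11b1 was 47.5, 55.0 and 35.9 in the BBR mice and 58.4, 62.3 and 57.8 in the SASP mice, so the inactivating enzyme was the far more abundant transcript per length throughout. The BBR ratios were all lower than the SASP ratios. Exact permutation of 3 mice against 3 cannot give a two-sided p under 0.10, and the ratio was not tested. H6pd, which supplies the cofactor that lets Hsd11b1 work as a reductase, was at 5.07, 5.68 and 5.15 FPKM with BBR and 5.97, 7.77 and 7.17 FPKM with SASP, and the log2 fold change, -0.33 (SE 0.13), had a limma adjusted p = 0.140.

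Nr3c1 (Gene ID 14815), the glucocorticoid receptor, is expressed by nearly every cell type. It was measured at 16.46, 16.78 and 9.38 FPKM with BBR and 16.02, 14.06 and 14.17 FPKM with SASP. BBR mouse 3 was the lowest of all 6 mice, while the other 2 BBR mice were the highest. The log2 fold change was -0.09 (SE 0.22), and without BBR mouse 3 it was 0.16, so the direction of Nr3c1 rested on that mouse.

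Nr3c2 (Gene ID 110784), the mineralocorticoid receptor, was the more abundant receptor transcript per length, at 44.85, 42.10 and 40.64 FPKM with BBR and 36.47, 32.25 and 41.79 FPKM with SASP. SASP mouse 3 lay within the range of the BBR mice, and the log2 fold change was 0.21 (SE 0.12). The ratio of Nr3c2 to Nr3c1 was 2.73, 2.51 and 4.33 with BBR and 2.28, 2.29 and 2.95 with SASP, above 1 in all 6 mice. Nr3c2 had the larger absolute difference of the receptors, and the genes most like it over the 6 mice were Hcst (r = 0.982), Gm46901 (r = 0.976) and Rce1 (r = 0.974), with 10 of 12071 genes above an r of 0.95.

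**Figure D3:**
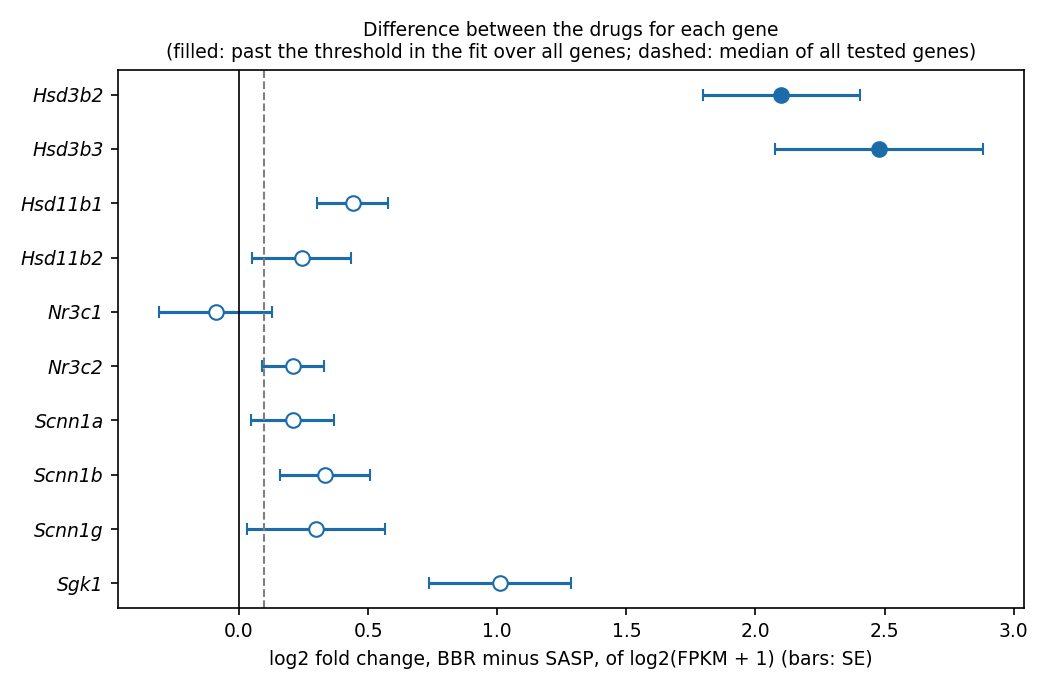
Log2 fold change of each of the 10 genes, BBR minus SASP, with bars for the SE. Filled points are Hsd3b2 (2.10) and Hsd3b3 (2.48), which passed the threshold in the fit over all genes, and the dashed line is the median of all tested genes (0.10).

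The subunits of the epithelial sodium channel, which sits in the surface epithelium of the distal colon, differed in level. The summed FPKM of 7 surface colonocyte markers overlapped between the drugs, at 4456 to 8344 with BBR and 4377 to 5636 with SASP. None of the 7 passed the threshold and they did not run together, since all BBR mice were above all SASP mice for Car1 (log2 fold change 2.48) and below them for Krt20 (-1.18) and Ceacam20 (-0.34). Scnn1a (Gene ID 20276), the alpha subunit, was the most abundant of the subunits in every mouse, at 65.62, 68.98 and 72.58 FPKM with BBR and 47.15, 72.34 and 62.13 FPKM with SASP. SASP mouse 1 was lowest and SASP mouse 2 lay among the BBR mice. The log2 fold change was 0.21 (SE 0.16).

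Scnn1b (Gene ID 20277), the beta subunit, was measured at 8.17, 9.59 and 6.01 FPKM with BBR and 5.43, 6.16 and 6.42 FPKM with SASP. BBR mouse 3 fell among the SASP mice while the other 2 BBR mice were above them, and the log2 fold change was 0.33 (SE 0.17). Scnn1g (Gene ID 20278), the gamma subunit, was measured at 7.72, 9.04 and 3.84 FPKM with BBR and 5.4, 5.04 and 4.90 FPKM with SASP, with a log2 fold change of 0.30 (SE 0.27). BBR mouse 3 was the lowest of all mice for Scnn1g, and the other 2 BBR mice were the highest.

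Without BBR mouse 3 the log2 fold changes were 0.50 for Scnn1b and 0.61 for Scnn1g, and both then passed the threshold, as 4018 of all tested genes did. That mouse had the highest smooth muscle marker sum (7570 FPKM) and the lowest hindgut Hox sum (208 FPKM) of the 6, and the part of either in the channel values was not tested. Scnn1a did not have this gap in BBR mouse 3, where it was highest. The ratio of Scnn1a to Scnn1b was accordingly 12.1 in BBR mouse 3, against 8.03 and 7.19 in the other BBR mice and 8.68 to 11.7 in the SASP mice.

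The ratio of Scnn1b to Scnn1g was 1.06, 1.06 and 1.57 with BBR and 1.01, 1.22 and 1.31 with SASP. Their Pearson r over the 6 mice was 0.88 and was 0.89 after the group means were taken out. The coding sequences of the subunits were 58.9% to 60.0% identical, and none of the 50-base windows of their longest annotated transcripts was found in another gene, unlike the Hsd3b pair.

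Sgk1 (Gene ID 20393), the kinase that retains the channel at the membrane and whose transcription both receptors can raise, was measured at 138.43, 183.47 and 105.62 FPKM with BBR and 50.92, 95.61 and 66.02 FPKM with SASP. All BBR mice were above all SASP mice, though BBR mouse 3 and SASP mouse 2 were close. The means were 143 ± 39.1 and 70.9 ± 22.7 FPKM (SD, n = 3 each), a ratio of 2.01, and the log2 fold change was 1.01 (SE 0.27). Sgk1 did not pass the threshold with all 6 mice, where 1069 of all tested genes passed. It did pass without BBR mouse 3 (log2 fold change 1.21), with median-ratio scaling (0.88) and with array quality weights (1.07). In those fits 4018, 1683 and 7126 of all tested genes passed, so nothing is read from these calls. With all 6 mice, the log2 fold change of Sgk1 stood at the 97.9th percentile of all tested genes.

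From RefSeq start sites on GRCm38.p6, promoter windows of 7 of the 10 genes were searched, from 250 bases before a start to 50 after it. Any window of these genes on a set-aside chromosome was left out, while the count over all windows kept that chromosome. The glucocorticoid response element was searched as TGTTCT and its reverse complement facing each other across 3 bases. The arms of this pattern read the same on both strands, while the 3 bases between them may be any. The pattern occurred in 1 of the 13 windows of these genes, 1 of 6 for Sgk1, and in 3 of all 32851 windows, or 0.00913%. The 250 bases before that Sgk1 start, chr10:21993640-21993889 on the plus strand, are shown because this element (capitals) spans positions -189 to -175 from the start.
Sgk1: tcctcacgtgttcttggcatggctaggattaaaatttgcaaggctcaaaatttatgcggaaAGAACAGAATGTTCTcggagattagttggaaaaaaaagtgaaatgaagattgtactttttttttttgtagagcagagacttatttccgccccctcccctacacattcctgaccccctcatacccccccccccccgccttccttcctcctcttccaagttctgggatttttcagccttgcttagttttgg

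The shorter sequence TGTTCT, which is contained in the element and was also searched on both strands, was in 4 of the 13 windows, against 19.0% of all windows. CAAGGTCA, a sequence bound by NR5A receptors such as LRH-1, the product of Nr5a2, was in 2 of 13 windows, both of Sgk1, against 1.56% of all windows. These matches describe letters in the windows and show no binding. Nr5a2 was at 17.3, 13.86 and 8.59 FPKM with BBR and 12.26, 11.3 and 10.14 FPKM with SASP, and the log2 fold change, 0.17 (SE 0.23), had a limma adjusted p = 0.631.

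Sgk1 had the largest difference of the channel and kinase genes. Those most like it over the 6 mice were Dpp7 (r = 0.998), Chd3 (r = 0.997) and Arsk (r = 0.996), and 419 of 12071 genes had an r above 0.95.

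By mean FPKM over all 6 mice, the order of the 10 genes was Hsd11b2 (125), Sgk1 (107), Scnn1a (64.8), Nr3c2 (39.7), Hsd3b3 (26.4), Nr3c1 (14.5), Scnn1b (6.96), Scnn1g (5.99), Hsd3b2 (3.58) and Hsd11b1 (2.43). The order depended on the drug. With BBR the mean of Sgk1 (143) was above that of Hsd11b2 (136) and that of Hsd3b3 (44.7) above that of Nr3c2 (42.5), while with SASP the mean of Hsd3b3 (8.07) was below that of Nr3c1 (14.8) and that of Hsd3b2 (0.760) below that of Hsd11b1 (1.92). Over all 6 mice, neighbours in the pooled order overlapped in their range over mice, with the exception of Scnn1a and Nr3c2, where the lowest Scnn1a value (47.15 FPKM) was above the highest Nr3c2 value (44.85 FPKM). Spread within a drug was unequal. The coefficient of variation with SASP was 87.9% for Hsd3b2 and 69.4% for Hsd3b3, but 5.04% for Scnn1g, and with BBR it ran from 2.05% for Hsd11b1 to 39.4% for Scnn1g.

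**Figure D4:**
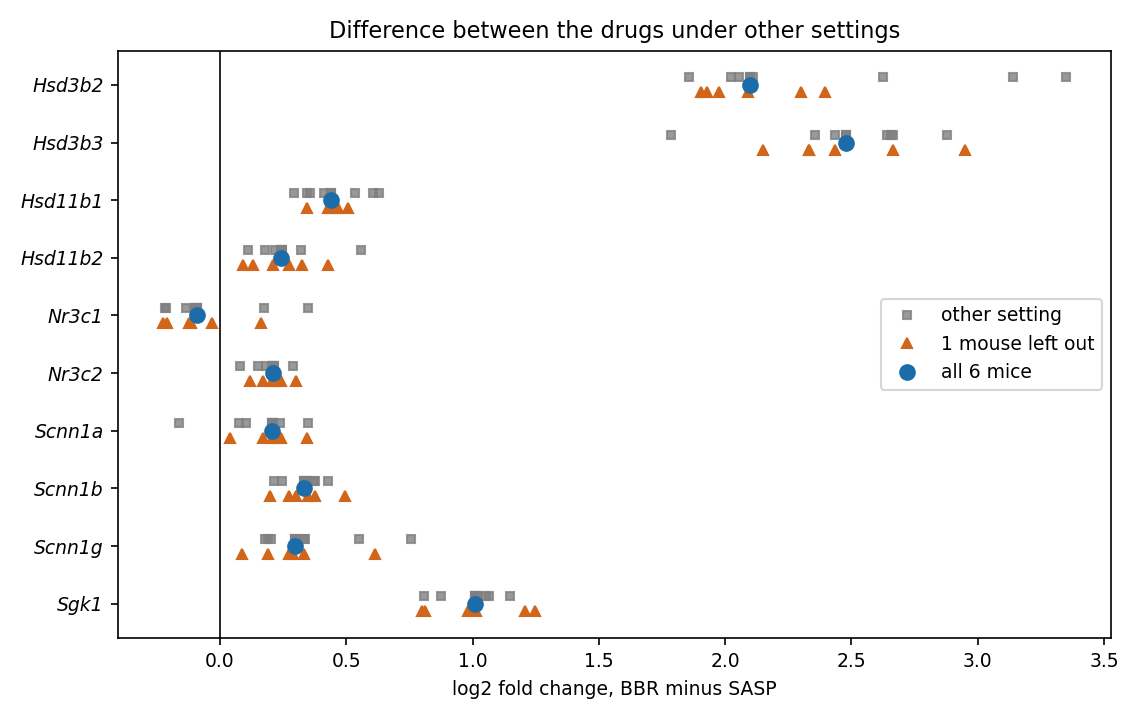
Log2 fold change of each of the 10 genes with all 6 mice (circles), with 1 mouse left out (triangles) and under other normalizations, filters and covariates (squares). Nr3c1 and Scnn1a cross 0 under at least 1 setting, while all the other genes stay above 0 throughout.

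Other genes of the pathway were listed by role, with earlier results of these data known, and read from the same fit. Their counts are descriptions, and so are the adjusted p-values. These are given for the genes with the smallest p of each list, and above also for H6pd and Nr5a2. Of all tested genes, 8.86% passed. Of 25 further genes of steroid synthesis and metabolism, 21 were in the table, 14 were tested, and 1 passed. This was Por, the electron donor of microsomal cytochrome P450 enzymes, at 51.67, 43.53 and 50.47 FPKM with BBR and 18.7, 34.59 and 24.09 FPKM with SASP. All BBR mice were above all SASP mice, and the log2 fold change was 0.93 (SE 0.21, limma adjusted p = 0.0445). It did not pass without BBR mouse 1 (0.88), BBR mouse 2 (1.00), SASP mouse 1 (0.73) or SASP mouse 3 (0.90), nor with median-ratio scaling (0.80). The median log2 fold change of the list was 0.22.

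Beside 5.04% of all tested genes that passed as lower with BBR, 3 of 12 glucocorticoid receptor chaperones and coregulators passed, all lower. They were Stip1, a co-chaperone that links HSP70 to HSP90, with a log2 fold change of -0.62 (limma adjusted p = 0.0186), Hsp90aa1, an HSP90 chaperone, at -0.83 (limma adjusted p = 0.0243), and Ptges3, the co-chaperone p23, at -0.52 (limma adjusted p = 0.0385). Hsp90aa1 was at 69.46, 96.21 and 87.17 FPKM with BBR and 163.07, 135.34 and 151.2 FPKM with SASP, without overlap. These proteins fold the receptor and many other clients. The list's median log2 fold change was -0.12, no coregulator passed, and none of the 12 passed without BBR mouse 1, SASP mouse 1 or SASP mouse 3.

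Of 14 genes that glucocorticoids are known to induce, none passed in limma, and the median log2 fold change was 0.05. An unadjusted p under 0.05 was found for 4 of them, as for 3837 of the 12072 tested genes. The smallest p-values belonged to Klf9, a transcription factor, at 0.54 (limma adjusted p = 0.0668), and Mt2, a metallothionein, at -1.79 (limma adjusted p = 0.0917). Mt2 was at 30.71, 9.96 and 31.38 FPKM with BBR and 37.77, 148.53 and 79.29 FPKM with SASP. The list thus held positive and negative values, 7 of each, and without BBR mouse 3 it had 4 genes past the threshold, in a fit where 4018 of all tested genes passed.

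Of 26 genes of epithelial sodium absorption and its regulators, 25 were tested and 4 passed, 3 higher and 1 lower with BBR. Over all tested genes, 3.82% passed as higher and 5.04% as lower. Fxyd4, an FXYD-family regulator of ion transport also called corticosteroid hormone-induced factor, was at 225.86, 261.24 and 195.41 FPKM with BBR and 62.56, 80.58 and 108.11 FPKM with SASP. The groups did not overlap, and the log2 fold change was 1.46 (SE 0.21, limma adjusted p = 0.0157). Slc9a2, a sodium-hydrogen exchanger, at 0.57 (limma adjusted p = 0.0394), and Cnksr3, a scaffold that supports channel activity, at 0.79 (limma adjusted p = 0.0431), were also higher. Tmprss4, a membrane protease able to activate the channel, was lower at -0.61 (limma adjusted p = 0.0367).

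The median log2 fold change of this list was 0.14. Its count of 4 was 0 without BBR mouse 1 or SASP mouse 1, 1 without BBR mouse 2, SASP mouse 2 or SASP mouse 3, and 12 without BBR mouse 3. Over all tested genes the count was 131 without BBR mouse 1, 371 without BBR mouse 2, 4018 without BBR mouse 3, and 59, 405 and 51 without SASP mouse 1, 2 and 3. Fxyd4 was the gene that still passed when no filter was used. With the smooth muscle score as covariate, no gene of these 4 lists passed, and 19 of all tested genes did.

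**Figure D5:**
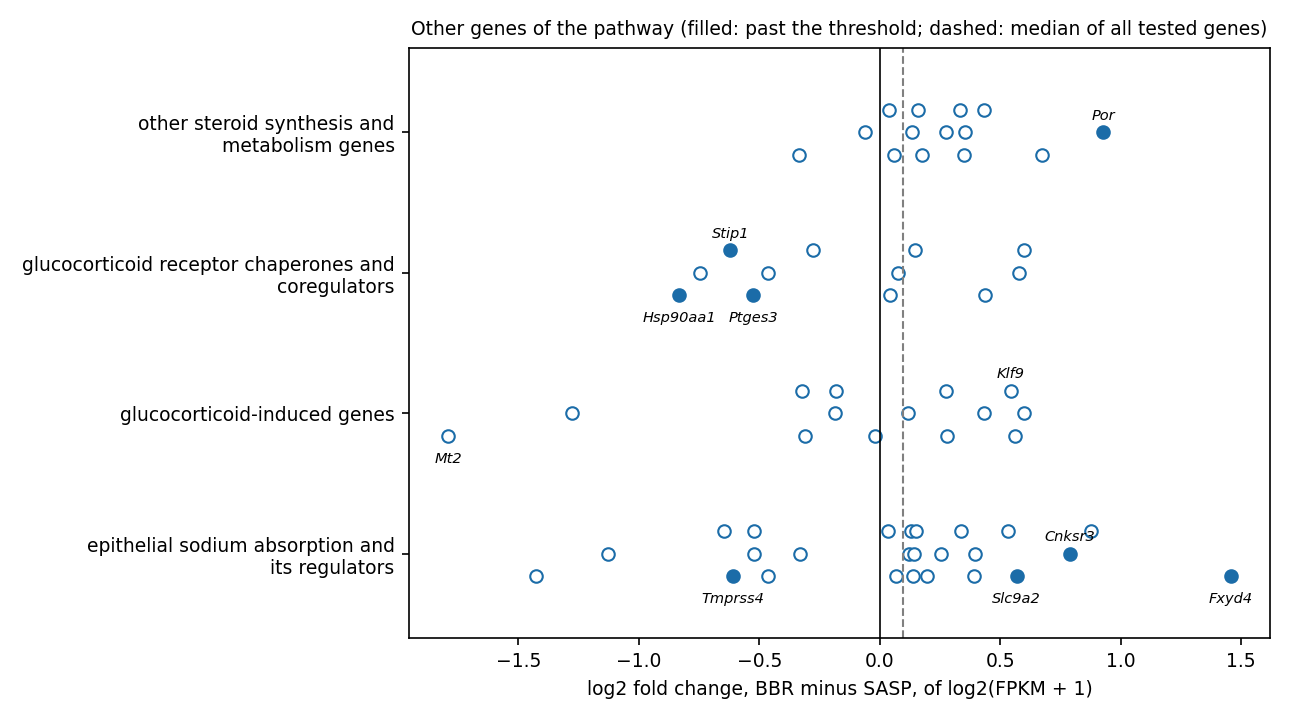
Log2 fold change, BBR minus SASP, of the tested genes in 4 lists, with filled points for those past the threshold and the dashed line at the median of all tested genes (0.10). The 3 chaperone genes past the threshold lie below 0, and Fxyd4 (1.46) is the highest of the named genes.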

How the data were processed

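RNA-seq of the large bowel was analysed in 3 mice receiving BBR and 3 receiving SASP, grouped by the treatment label. Replicate numbers follow the order of the records and only name mice. The authors deposited 1 table of FPKM values for 18268 genes. The submitters' processing notes name Bowtie2 2.2.5, RSEM 1.2.12 and the mm9 build, and the reads were not analysed here. The study describes rectal samples with rRNA depletion on a BGISEQ platform in one place and colon samples for SASP in another, while the labels name the colorectum and an Illumina kit, so site and library preparation are not settled. No column was left unmapped.

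The 12072 genes that reached 1 FPKM in 3 or more mice were taken as log2(FPKM + 1) and fitted with limma 3.58.1 in R 4.3.3 (empirical Bayes with a mean-variance trend, two-sided, Benjamini-Hochberg adjusted p under 0.05). P-values set the difference between the drugs against the spread between these mice. Whether the drugs were processed in separate batches is not known, so drug and batch cannot be told apart. Tested on simulated data, a log2 fold change of 2 in 200 of 12072 genes was recovered for 94%, with 4.57% of calls false. The simulation drew each gene independently, without the structure that genes of a mouse share. It therefore checks the fit and does not give the false share of the calls reported here. The 10 genes and all lists were chosen with earlier results of these data known. Named were the 10 genes, up to 4 genes per list with the smallest p past the threshold (2 if none passed), and the 3 genes most correlated with the gene of largest change in each role group. Other genes of the lists (the Hsd3b and Cyp genes, H6pd, Nr5a2 and single cell type markers) were named outside this rule, after their values were seen. Other pseudocounts, filters, normalizations, sample weights, marker scores as covariates and leaving out each mouse were tried. Depth was estimated from genes above 0 in 1 mouse, taken as 1 read. Sequences came from RefSeq promoter windows (GRCm38.p6) and GENCODE M21 transcripts, read with Python 3.11.15. The table gives no coordinates, and no genome of its build was used.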

Additional observations from a re-analysis of the deposited data

How the results depend on the processing

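No paired analysis was possible because the labels give the groups no shared replicate numbers. Of all tested genes, 1069 passed (461 higher and 608 lower with BBR). The count was 608 with no filter, 1737 with quantile normalization, 1683 with median-ratio scaling (499 higher and 1184 lower), 7126 with array quality weights (4636 and 2490), 19 with the smooth muscle score as covariate (2 and 17), 1648 with the epithelial score (990 and 658), 3837 at an unadjusted p and 51 to 4018 with 1 mouse left out. Median-ratio scaling moved the median log2 fold change of all genes from 0.10 to -0.02. Of the 10 genes, 2 passed, against 1 with a mean of at least 5 FPKM (Hsd3b2 was then not tested), 6 with array weights, 0 with the smooth muscle score, 4 unadjusted and 0 to 5 with 1 mouse left out. The further steroid genes (1) gave 0 with no filter, no trend or the smooth muscle score, 4 with quantile normalization, 12 with array weights, 7 unadjusted and 0 to 10 with 1 mouse left out. The chaperones and coregulators (3) gave 12 with array weights, 0 with the smooth muscle score, 7 unadjusted and 0 to 6 with 1 mouse left out. The glucocorticoid-induced genes (0) gave 1 with quantile normalization or the epithelial score, 10 with array weights, 4 unadjusted and 0 to 4 with 1 mouse left out. The sodium absorption genes (4) gave 1 with no filter, 18 with array weights, 0 with the smooth muscle score, 2 with the epithelial score, 12 unadjusted and 0 to 12 with 1 mouse left out. Nr3c1 (-0.09) reversed to 0.17 with array weights and 0.35 with the smooth muscle score, and ranged from -0.22 to 0.16 with 1 mouse left out. Scnn1a (0.21) reversed to -0.16 with the smooth muscle score. Of 158 values of the 10 genes under these alternatives, 138 kept direction and side of the threshold, 8 lost the threshold, 8 gained it and 4 reversed. The smooth muscle score was higher in the BBR mice than in the SASP mice, so the score and the drug partly coincide in that fit, and array weights gave BBR mouse 3 a weight of 0.13 and BBR mouse 1 one of 5.32. The cause of these changes was not tested. With 3 mice per drug, groups are too small for a test of outliers, depth is an estimate, and values of Hsd3b2 with SASP rest on few reads.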
